A study of Mus musculus with 10 samples.

Results

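Cardiomyocytes are joined end to end at the intercalated disc, and 10 genes that encode its junction proteins are described here: the connexin genes Gja1, Gja5 and Gjc1, the desmosomal genes Dsp, Dsg2, Dsc2, Pkp2 and Jup, and the adherens junction genes Cdh2 and Ctnna3. They were taken by symbol from the count files, which hold each of them once among 23337 genes. The libraries were made from poly(A) RNA of the left ventricle (LV) and of skeletal muscle (SkM) of 5 C57BL/6/129SvEv hybrid mice aged 17 weeks. WT mice (n = 2) carry the intact titin gene Ttn, and E0del/+ mice (n = 3) are heterozygous for a CRISPR/Cas9 deletion of E0, an enhancer in intron 1 of Ttn. Each mouse gave 1 LV and 1 SkM library, 10 in all, and the batch tag in the labels equals the replicate number, so that batch 3 holds an E0del/+ mouse and no WT mouse. The labels name neither the muscle nor the sex.

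Gap junctions are clusters of connexin channels that let current pass from one cardiomyocyte to the next. Desmosomes tie the desmin filaments of neighbouring cells together, and adherens junctions do the same for actin. Mature skeletal muscle fibres are syncytia that work without discs, so a comparison of the tissues shows how far the genes of the disc are set apart from the muscle program that both tissues share, and inherited defects of the desmosomal genes cause arrhythmogenic cardiomyopathy.

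The members are spread over the mm10 genome. Gja1 (chromosome 10, 56377300 to 56390419, plus strand) and Ctnna3 (chromosome 10, 63430098 to 65003667, plus strand) share a chromosome, as do Jup (chromosome 11, 100368856 to 100397790, minus strand) and Gjc1 (chromosome 11, 102799478 to 102819686, minus strand). The classical cadherin Cdh2 (16588877 to 16809049, minus strand) and the desmosomal cadherins Dsc2 (20030798 to 20059505, minus strand) and Dsg2 (20558116 to 20604526, plus strand) lie on chromosome 18. Gja5 is on chromosome 3 (97032416 to 97053634, plus strand), Dsp on chromosome 13 (38151294 to 38198577, plus strand) and Pkp2 on chromosome 16 (16213345 to 16272712, plus strand). The gene models have between 2 exons (Gja1, Gja5) and 24 exons (Dsp). Ctnna3 holds the gene Lrrtm3 on its opposite strand, with 0 exon bases in common, and the libraries are unstranded.

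Total counts per library were between 11010021 and 15361520 in LV and between 13892390 and 17484873 in SkM. Levels are given in CPM (counts scaled to the total counts of the library) and, where genes are set side by side, in RPKM (the same, divided by the summed exon length in kilobases). A single count equals between 0.0572 and 0.0908 CPM. Intervals on the counts of 1 library are exact 95% Poisson intervals and cover counting error only. In these bulk libraries, fewer cells of a type and less RNA per cell cannot be told apart.

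Some libraries stood apart from others with the same label. The WT LV replicate 2 library held RNA of fast skeletal muscle: all 8 markers were present (Myh4 highest), and their median level was 22.8% of the mean in SkM, against 0.0937% to 0.111% in the other LV libraries. Summed over the 8 markers, that library had 38992 CPM and the other LV libraries 154 to 177 CPM. The 3 satellite cell markers summed to 10.98 CPM there and to 0.0651 to 0.182 CPM in the other LV libraries, in which Pax7 and Myf5 were at 0. Its 6 ventricle markers were at a median of 66.1% of the mean of the other LV libraries, and 9 of the 10 junction genes were below that mean, with a median of 75.4%, from 67.7% for Dsg2 to 104% for Gjc1. Of the epithelial keratins, Krt8 (18.5 CPM) and Krt18 (13.7 CPM) were also higher there than in the other LV libraries (0.611 to 0.908 and 0.716 to 1.69 CPM). Krt7 was lower there (0.450 CPM against 0.611 to 2.00 CPM), Krt19 (1.80 CPM) lay within the range of the others, Cdh1 was at 0 and Epcam had 1 count.

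In SkM, both batch 1 libraries carried markers of epithelium and of lymphocytes. The 6 epithelial markers Epcam, Krt8, Krt18, Krt7, Krt19 and Cdh1 summed to 88.0 CPM in WT SkM replicate 1 and 60.8 CPM in E0del/+ SkM replicate 1, and to 0.744, 7.26 and 1.41 CPM in WT replicate 2 and E0del/+ replicates 2 and 3. The most abundant was Krt8 (20.5 CPM) in the first library and Krt19 (16.9 CPM) in the second. The 4 lymphocyte markers Cd79a, Ms4a1, Cd3e and Cd8a summed to 24.4 and 44.9 CPM in the batch 1 libraries and to 4.35, 5.33 and 3.59 CPM in the others. The most abundant was Cd3e (7.05 CPM) in WT SkM replicate 1 and Cd79a (14.9 CPM) in E0del/+ SkM replicate 1. Krt1, a marker of the epidermis, was at 0 in 4 of the 5 SkM libraries, and the 4 epidermal markers summed to 8.28 CPM in WT SkM replicate 1 and to 1.60 to 3.73 CPM in the other SkM libraries, with Krt5 (3.74 CPM) the most abundant in the first and Krt10 in the others. These lists of epithelial and lymphocyte markers were chosen after values had been seen. Y-linked transcripts also marked a library: WT SkM replicate 1 had 300 counts over 4 Y-linked genes and Xist at 397 CPM, while the LV library of the same mouse had 6 such counts and Xist at 518 CPM. Whether both libraries of WT replicate 1 hold RNA of 1 mouse alone cannot be told from these counts, and its values are paired as labelled. Without that pair, 9 of the 10 junction genes were called higher in LV, where 28.8% of all genes tested were. In the other mice the tissues matched. The Y-linked genes had 2420 to 2771 counts, with Xist at 0.343 to 4.89 CPM, in both libraries of WT replicate 2 and of E0del/+ replicate 3. They had 9 to 36 counts, with Xist at 278.5 to 806 CPM, in those of E0del/+ replicates 1 and 2. The mice of batch 2 thus differed in sex-linked transcripts as well as in genotype.

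All 10 junction genes were more abundant in LV than in SkM in each of the 5 mice, with no overlap between the tissues in CPM, a pattern shared by 52.1% of the 13283 genes tested. With the libraries scaled by TMM, the scaling used in the edgeR tests, this held for 9 of the 10 and for 26.5% of all genes, and Ctnna3 overlapped. In the paired edgeR test, 9 of the 10 were higher in LV past an adjusted p of 0.05 and 0 were lower, where 32.1% of all genes tested were higher in LV and 30% higher in SkM. Ctnna3 was the exception. The median log2 fold change of the members was 4.67, from 0.39 to 8.58, beside 0.02 for all genes tested. All 10 members passed the filter on low counts, 3 of them (Dsg2, Dsc2 and Cdh2) with fewer than 10 counts in at least 1 SkM library. Those 3 passed it through their LV libraries alone, so that their calls and their part in the median rest on that filter.

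**Figure D1:**
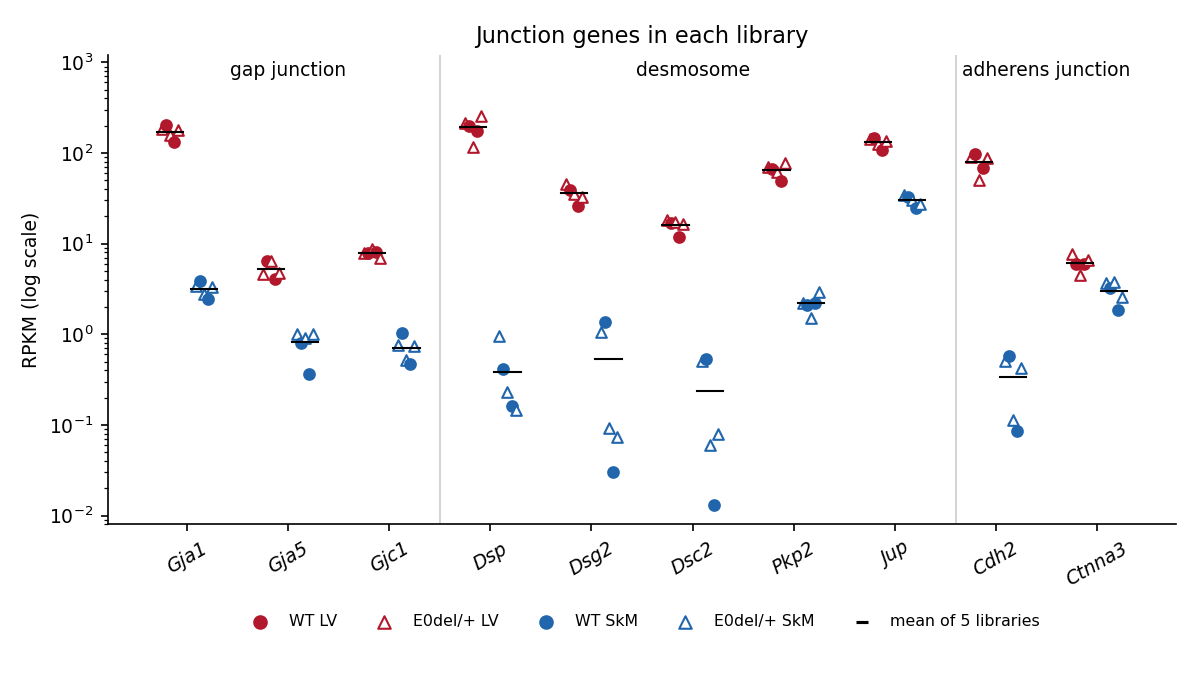
RPKM (log axis) of the 10 junction genes in each of the 10 libraries, by junction class. Circles are WT and triangles E0del/+ mice, red is LV and blue SkM, and the black line is the mean of 5 libraries. The LV points lie above the SkM points for each gene, furthest for Dsp and Cdh2 and least for Ctnna3, whose tissues overlap when scaled by TMM, and the SkM points of Dsg2 and Dsc2 fall into a high pair and a low trio.

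Gja1 encodes the main connexin of working ventricular myocardium. Its level in LV was 631 and 411 CPM in WT replicates 1 and 2 and 579, 490.5 and 562 CPM in E0del/+ replicates 1 to 3. In SkM it was 12.2 and 7.55 CPM in WT and 10.7, 8.66 and 10.4 CPM in E0del/+. The tissues were far apart in all mice and the genotypes overlapped in both, with the lowest value of each tissue in WT replicate 2. The log2 fold change of LV over SkM was 5.09 (SE 0.13, n = 5 mice, edgeR adjusted p = 9.29e-07), a 34.2-fold difference with a 95% interval of 27.7 to 42.2, and Gja1 ranked 4 by p among all genes tested.

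The ratio of Gja1 between LV and SkM in CPM lay in a narrow range over the mice. LV over SkM was 51.9 and 54.5 in WT replicates 1 and 2 and 54.0, 56.6 and 53.9 in E0del/+ replicates 1 to 3, so that the highest was 1.09 times the lowest. The counting intervals were 44.6 to 60.8 for the lowest and 47.6 to 67.9 for the highest, so that differences of this size between mice are below what these counts can resolve. The ratio of WT replicate 2 stayed within those of the others although its LV library held skeletal muscle RNA. On the log2 scale the SD over mice was 0.04 for Gja1 and 0.09 for Jup, and between 0.34 (Pkp2) and 2.20 (Dsg2) for the other 8 members. With TMM in place of total counts, chosen after the values were seen, the ratios of Gja1 were less even, from 29.8 to 36.7, the highest 1.23 times the lowest. The SD was then 0.13 for Gja1 and 0.22 for Jup, still the smallest of the members.

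The ratios of CPM mostly exceed the fitted folds, which use TMM scaling, with factors of 1.17 to 1.42 for the LV libraries and 0.708 to 0.900 for the SkM libraries. For Dsg2 the fitted fold of 69.2 lay above the TMM-scaled ratios of the batch 1 mice (28.8 and 20.1) and below the others (198, 524 and 295). For Dsc2 the fold of 52.6 lay above 24.8 and 22.1 and below 152, 549 and 136. The 10 most abundant genes took between 27.2% and 29.5% of the counts of a SkM library and between 12.5% and 14.5% of an LV library. With total counts in place of TMM, the median of all genes tested moved from 0.02 to 0.68, and the share of called genes that were higher in LV from 51.7% to 83.2% (7881 higher and 1590 lower, against 4269 and 3986). The junction genes moved with it, Gja1 to 5.76 and Jup to 2.14, and none changed direction.

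**Figure D2:**
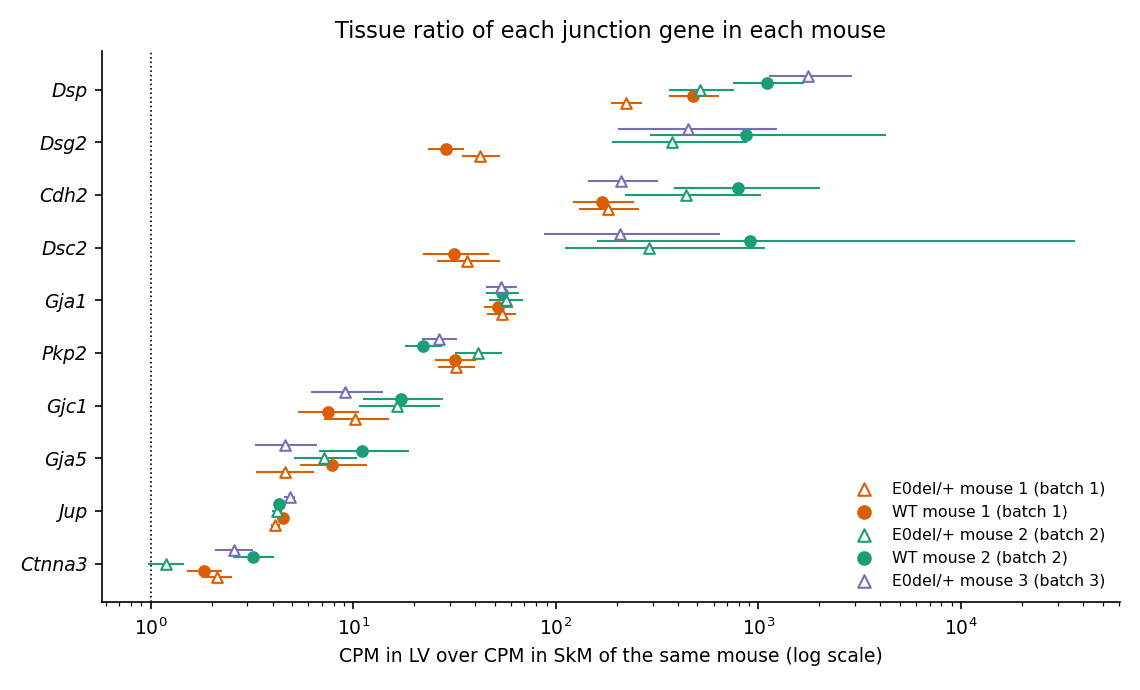
CPM in LV over CPM in SkM of the same mouse (log axis) for each junction gene. Filled circles are WT and open triangles E0del/+ mice, colours give the batch, lines are 95% counting intervals and the dotted line marks equal levels. The 5 points of Gja1 lie on top of each other between 51.9 and 56.6, and the batch 1 mice lie lowest for Dsg2, Dsc2, Dsp and Cdh2.

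The 250 bases before the start of Gja1, Dsp and Jup are shown because these genes lead the LV order of levels, and because Gja1 and Jup kept the most even ratios. They are from RefSeq on GRCm38.p6, 5′ to 3′ on the strand of the gene: Gja1 at chr10:56377050-56377299 (plus), Dsp at chr13:38151044-38151293 (plus) and Jup at chr11:100397791-100398040 (minus). Capitals mark matches to the motifs searched on both strands: the GATA factor motif AGATAA, the TEAD factor motif CATTCC, the NKX2-5 motif TNAAGTG, the AP-1 motif TGAGTCA and the GC box GGGCGG, of which AP-1 and the GC box were chosen after the sequences had been seen.
Gja1: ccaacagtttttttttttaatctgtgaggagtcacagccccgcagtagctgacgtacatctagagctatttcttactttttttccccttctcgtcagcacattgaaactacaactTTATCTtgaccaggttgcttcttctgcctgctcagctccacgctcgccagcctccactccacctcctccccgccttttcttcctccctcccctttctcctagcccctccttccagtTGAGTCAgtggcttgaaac
Dsp: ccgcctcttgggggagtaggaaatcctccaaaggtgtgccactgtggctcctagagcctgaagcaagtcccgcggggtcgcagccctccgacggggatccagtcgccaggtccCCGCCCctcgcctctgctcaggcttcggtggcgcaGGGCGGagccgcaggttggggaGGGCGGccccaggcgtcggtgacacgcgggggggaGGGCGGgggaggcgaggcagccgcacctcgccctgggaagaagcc
Jup: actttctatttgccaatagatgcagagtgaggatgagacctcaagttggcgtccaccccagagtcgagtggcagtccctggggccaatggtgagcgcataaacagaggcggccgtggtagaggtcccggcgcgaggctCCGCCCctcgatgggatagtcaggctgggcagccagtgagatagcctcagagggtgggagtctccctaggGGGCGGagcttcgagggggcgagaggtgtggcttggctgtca

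The 3 promoters differ in composition and in motifs. Gja1 has 50.0% G and C, Jup 62.0% and Dsp 72.4%, against a median of 52.4% for all promoters in the set. Gja1 holds 1 GATA match on the other strand (135 to 130 bases before the start) and 1 AP-1 match (19 to 13 bases before it), Dsp holds 4 GC boxes and Jup 2. Of 32851 promoters of this length, 9.99% hold the GATA letters, 12.6% TEAD, 10.1% NKX2-5, 4.46% AP-1 and 32.7% a GC box. The set held promoters for 5 members, with Gja5 and Ctnna3 beside the 3 shown. Gja5 had 1 GC box. Ctnna3 had 1 GC box in the promoter at its start and 1 TEAD match in another, which begins at 63457261 within the gene. A match is a run of letters and was not tested for binding.

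Gja5 is the connexin of the conduction system, the atria and arterial endothelium. Its level in LV was 19.8 and 12.6 CPM in WT and 14.4, 20.2 and 14.7 CPM in E0del/+, and in SkM 2.52 and 1.14 CPM in WT and 3.14, 2.80 and 3.17 CPM in E0del/+. LV was higher by 2.05 on the log2 scale (SE 0.22, n = 5 mice, edgeR adjusted p = 0.000120), the smallest tissue difference of the 3 connexins. The arterial endothelial markers Gja4, Sox17, Dll4 and Hey1 were higher in LV too (4 of 4, median 1.91), as were 5 of 5 endothelial markers (median 2.16) and 32.1% of all genes tested. The part of these markers in the difference of Gja5 was not tested.

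Gjc1, the connexin of the nodes and of early heart development, was at 22.7 and 23.7 CPM in WT LV and 22.7, 25.3 and 19.98 CPM in E0del/+ LV. In SkM it was at 3.02 and 1.37 CPM in WT and 2.22, 1.53 and 2.18 CPM in E0del/+. It was the member with the smallest spread in LV (coefficient of variation 8.53%) and the only one not below the mean of the other LV libraries in WT LV replicate 2. Its log2 fold change of LV over SkM was 2.84 (SE 0.18, n = 5 mice, edgeR adjusted p = 1.47e-05).

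Summed per length, the 3 connexins came to 185 ± 27.7 RPKM in LV and 4.72 ± 0.983 RPKM in SkM (mean ± SD, n = 5 each), 39.6-fold higher in LV. Gja1 made up 92.8% of the sum in LV (91.2% to 94.0%) and 68.0% in SkM (65.5% to 74.3%). The share was higher in LV in 5 of 5 mice, by 24.8 percentage points (exact sign-flip permutation, two-sided, p = 0.063, the smallest that 5 pairs allow). Gja5 took 2.85% in LV and 17.2% in SkM, and Gjc1 4.35% and 14.8%. In SkM the remaining connexin RNA was thus more evenly mixed.

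Other connexin genes were searched for the same tissue difference. Of 15 other connexin and pannexin genes, 4 passed the filter, 2 were higher in LV, 1 was higher in SkM and Gjc3 was not called. Of all genes tested, 32.1% were higher in LV and 30% higher in SkM. Gja3, a connexin best known from the lens, was at 10.3 ± 2.14 RPKM in LV and at 0 to 0.131 RPKM in SkM, on 0 to 3 counts per library. It passed the filter through LV alone, and no fold is given because the fitted value depends on the prior count. Gja3 exceeded Gja5 in 5 of 5 LV libraries and Gjc1 in 4 of 5. Gja4, an endothelial connexin, was at 7.95 ± 2.88 RPKM in LV and 1.19 ± 0.433 RPKM in SkM (log2 fold change 2.09, SE 0.25). Panx1, which forms channels to the outside of the cell, was higher in SkM (1.11 ± 0.213 and 4.83 ± 1.49 RPKM, log2 fold change -2.75, SE 0.19).

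**Figure D3:**
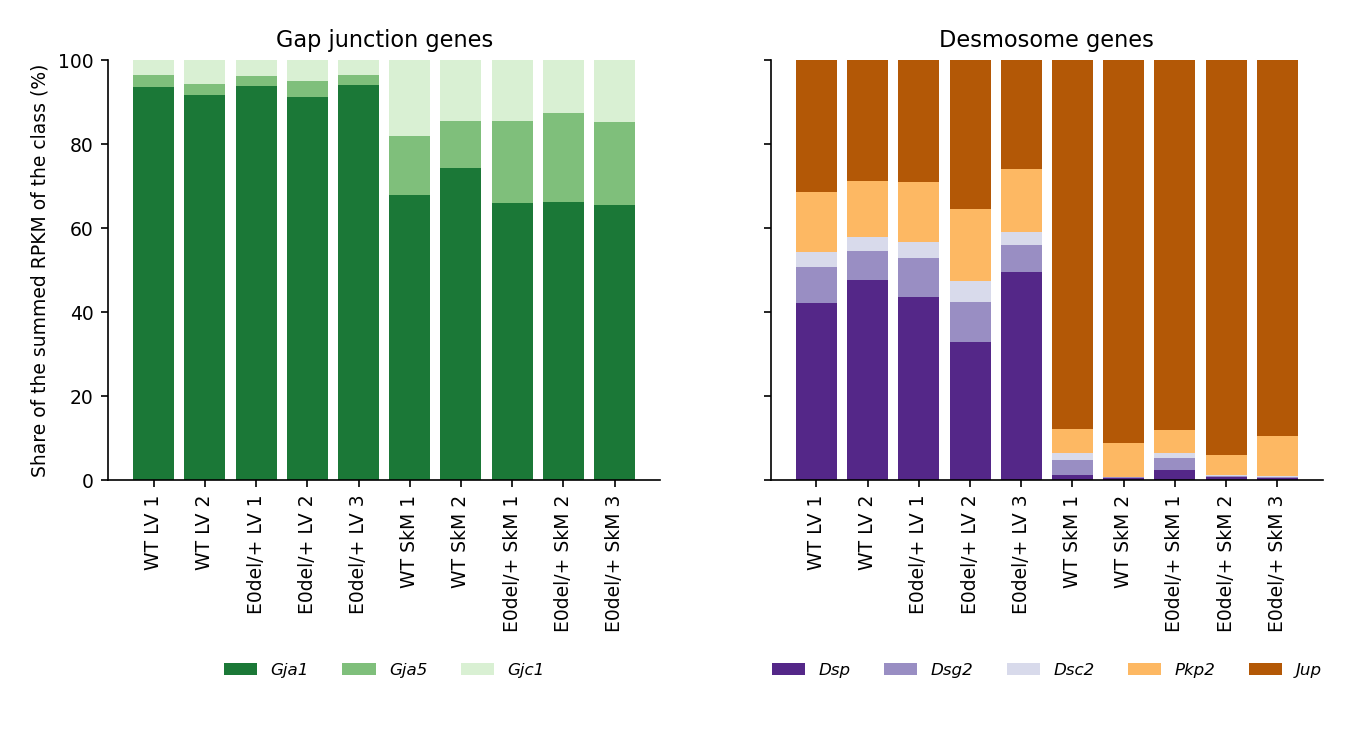
Share (percent) of each gene in the summed RPKM of the gap junction genes (left) and the desmosome genes (right), with 1 stacked bar for each library. Gja1 takes 91.2% to 94.0% of the connexin sum in LV and 65.5% to 74.3% in SkM. Jup takes 25.9% to 35.4% of the desmosome sum in LV and 88.0% to 94.1% in SkM.

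Dsp encodes desmoplakin, which links the desmosomal plaque to desmin filaments. It was at 1892 and 1695 CPM in WT LV and 2062, 1130.4 and 2465 CPM in E0del/+ LV, with E0del/+ LV replicate 2 the lowest at 55.7% of the mean of the other LV libraries. In SkM it was at 3.96 and 1.54 CPM in WT and 9.29, 2.20 and 1.41 CPM in E0del/+. Its tissue difference was the largest of the members, with a log2 fold change of 8.58 (SE 0.52, n = 5 mice, edgeR adjusted p = 1.15e-05), 383-fold, with a 95% interval of 167 to 879.8. It ranked 12 of 13283 genes tested by log2 fold change towards LV, and 30 by size in either direction.

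Jup encodes plakoglobin, a catenin that sits in desmosomes and in adherens junctions. It was the junction gene with the highest RPKM in SkM, with 163 and 125 CPM in WT and 174, 152 and 138 CPM in E0del/+. In LV it was at 735 and 537 CPM in WT and 718, 638 and 672 CPM in E0del/+. Jup was higher in LV by 1.47 on the log2 scale (SE 0.14, n = 5 mice, edgeR adjusted p = 6.66e-05), 2.77-fold (2.22 to 3.45). Its ratio of CPM per mouse was between 4.12 and 4.85.

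Pkp2 encodes plakophilin, the plaque protein most often altered in arrhythmogenic cardiomyopathy. Its LV values were 195 and 143 CPM in WT and 204, 179 and 225 CPM in E0del/+, and its SkM values 6.12 and 6.46 CPM in WT and 6.34, 4.33 and 8.45 CPM in E0del/+. The log2 fold change was 4.25 (SE 0.15, n = 5 mice, edgeR adjusted p = 2.16e-06). It lay between Jup and the cadherins in size, and its ratio per mouse ran from 22.1 in WT replicate 2 to 41.4 in E0del/+ replicate 2.

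The desmosomal cadherins Dsg2 and Dsc2 bridge the gap between the cells. Dsg2 was at 226 and 148 CPM in WT LV and 261, 200.3 and 189 CPM in E0del/+ LV. In SkM it was at 7.92 CPM in WT replicate 1 and 6.15 CPM in E0del/+ replicate 1, the batch 1 mice, and at 0.172, 0.533 and 0.422 CPM (3, 8 and 6 counts) in WT replicate 2 and E0del/+ replicates 2 and 3. Dsc2 followed the same division: 74.8 and 51.8 CPM in WT LV and 80.9, 76.9 and 72.9 CPM in E0del/+ LV, then 2.38 and 2.22 CPM in the batch 1 SkM libraries and 0.0572, 0.267 and 0.352 CPM (1, 4 and 5 counts) in the others. The batch 1 values lay above the other SkM values for both genes, in either genotype.

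The tissue ratio divided in the same way. For Dsg2, LV over SkM in CPM was 28.6 and 42.4 in the batch 1 mice and 865, 376 and 449 in the others, the first of these with a counting interval of 295 to 4198. For Dsc2 it was 31.5 and 36.5 in batch 1 and 906, 289 and 207 in the others, the 906 resting on 1 count (162 to 35858). The log2 fold change over all mice was 6.11 for Dsg2 (SE 0.67, edgeR adjusted p = 0.000155) and 5.72 for Dsc2 (SE 0.52, adjusted p = 5.86e-05). Both passed the filter of that fit through their LV libraries alone, and their calls rest on it. Without batch 1, an alternative chosen after the values were seen, the remaining SkM libraries held 1 to 8 counts of these genes. Both again passed the filter through LV alone. No fold is given there because the SkM counts were so few, and their calls in that fit rest on that filter. In that fit 9 of the 10 members, both among them, were called higher in LV, where 24.8% of all genes tested were. Leaving out a single batch 1 mouse moved Dsg2 to 6.73 (E0del/+ replicate 1) and 6.85 (WT replicate 1).

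The SkM libraries with more Dsg2 and Dsc2 were those with the epithelial and lymphocyte markers. Cdh1, itself an epithelial marker, was at 15.5 and 5.35 CPM in the batch 1 libraries and 0.4003 to 0.533 CPM in the other SkM libraries. Of other junction genes, Dsc3 was at 1.51 and 2.22 CPM against 0 to 0.0572 CPM, and Pkp3 at 4.39 and 2.95 CPM against 0 to 0.267 CPM. Pkp1, Evpl and Perp were also highest in the batch 1 pair. Others did not divide that way: Ppl was at 7.20 and 5.91 CPM in batch 1 and 6.26 CPM in E0del/+ SkM replicate 2. Cdh3 was at 0.864 and 0.185 CPM in batch 1 and 0.286 CPM in WT SkM replicate 2, and Dsg3 and Dsg4 were at 0 in all SkM libraries. Dsp was highest in the batch 1 pair, at 3.96 and 9.29 CPM, and without batch 1 its log2 fold change was 9.19. Of the 6 ventricle markers, Myh6 (214 CPM), Tnnt2 (30.3 CPM) and Tnni3 (9.23 CPM) were highest in E0del/+ SkM replicate 1, the library with Dsp at 9.29 CPM. The next highest SkM values of these genes were 128, 11.7 and 4.86 CPM. The other ventricle markers were not highest there: Myl2 was at 60.3 CPM and Myl3 at 123 CPM, below 77.1 and 146 CPM in E0del/+ SkM replicate 2, and Actc1 at 1012 CPM, below 2060.2 CPM in WT SkM replicate 1. The 6 summed to 2283 and 233 CPM in WT SkM and to 1449, 1600.1 and 204 CPM in E0del/+ SkM. Gja1, Gjc1 and Jup were also highest in the batch 1 pair but with a smaller spread, Jup for example at 163 and 174 CPM against at most 152 CPM in the others. Cdh2 was highest there too, at 2.66 and 2.34 CPM, with E0del/+ replicate 3 next at 1.97 CPM. Gja5, Pkp2 and Ctnna3 did not divide that way. The part of these markers in the levels of Dsg2, Dsc2 and Dsp in SkM was not tested.

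**Figure D4:**
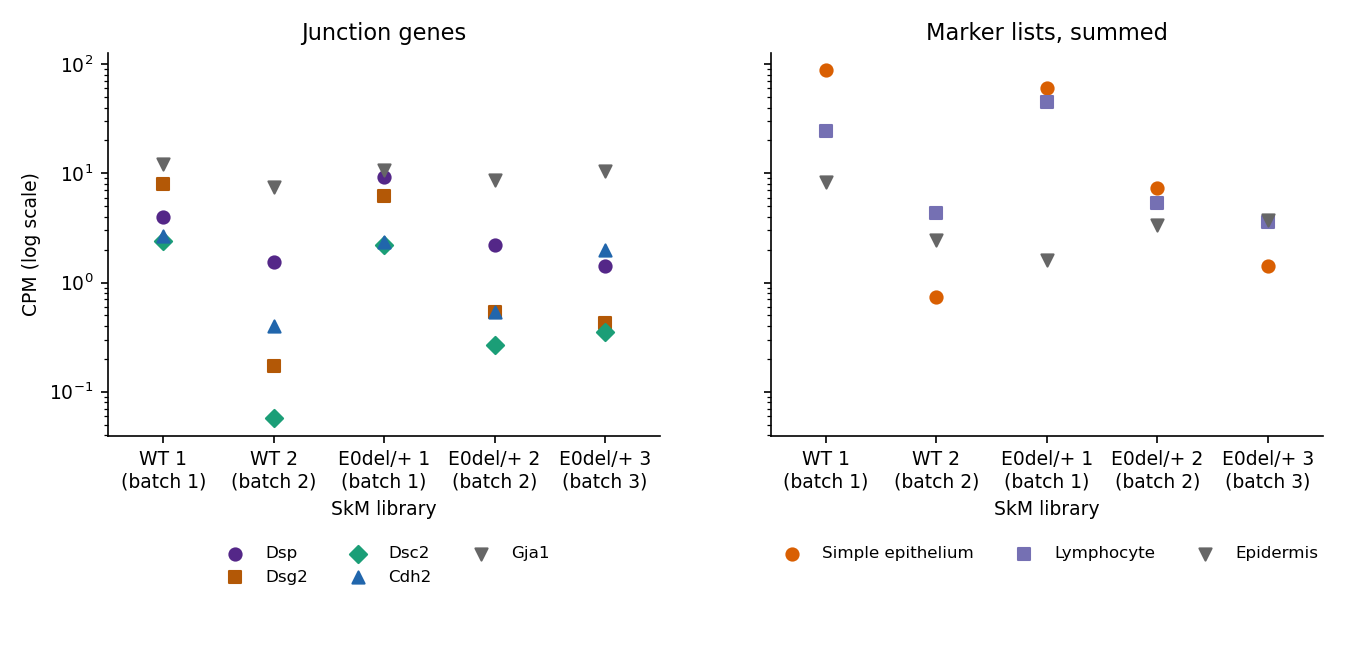
CPM (log axis) of 5 junction genes (left) and of 3 summed marker lists (right) in the 5 SkM libraries. The epithelial sum is 60.8 and 88.0 CPM in the batch 1 libraries and at most 7.26 CPM in the others, and Dsg2 and Dsc2 are high in the same libraries, while Gja1 stays between 7.55 and 12.2 CPM.

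As a class, the 5 desmosomal genes summed to 442 ± 72.3 RPKM in LV and 33.4 ± 4.87 RPKM in SkM, 13.2-fold higher in LV in 5 of 5 mice (exact sign-flip permutation, two-sided, p = 0.063, the smallest possible). The make-up differed: Dsp was 43.2% of the sum in LV and 1.07% in SkM, Jup 30.1% and 90.2%, Pkp2 14.9% and 6.72%, Dsg2 8.15% and 1.42%, and Dsc2 3.71% and 0.644%. Of 12 other desmosomal genes, 3 passed the filter and were higher in LV, where 32.1% of all genes tested were. Of these, Perp and Evpl passed the filter through LV alone. Perp, a membrane protein of desmosomes, was at 67.3 ± 8.14 RPKM in LV and 0.866 ± 0.398 RPKM in SkM (log2 fold change 5.69, SE 0.24), in the range of Pkp2 and above it in 3 of 5 LV libraries. The plaque linkers Ppl (3.47 ± 0.778 RPKM in LV, log2 fold change 1.39, SE 0.17) and Evpl (0.535 ± 0.227 RPKM, 1.73, SE 0.63) were low. Evpl was not past the threshold without E0del/+ replicate 2 (1.27), WT replicate 2 (1.56) or E0del/+ replicate 3 (1.43), nor without mouse as a block (1.27), and without batch 1 its fold change was 3.24. Counts of Dsg1a, Dsg1b and Dsg1c are uncertain, since these genes are near-identical copies.

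Cdh2 encodes N-cadherin, the classical cadherin of the disc. Its LV values were 452 and 318 CPM in WT and 422, 233.5 and 414 CPM in E0del/+, with E0del/+ replicate 2 the lowest, as for Dsp. In SkM it was at 2.66 and 0.4003 CPM in WT and 2.34, 0.533 and 1.97 CPM in E0del/+, on 7 to 38 counts. The batch 2 libraries of SkM were the low ones in both genotypes. The log2 fold change was 7.38 (SE 0.31, n = 5 mice, edgeR adjusted p = 3.51e-06), a 166-fold difference with a 95% interval of 101 to 273. With 7 and 8 counts in the batch 2 SkM libraries, Cdh2 passed the filter through its LV libraries alone, and its call rests on that.

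Ctnna3 encodes an alpha-catenin of heart muscle that ties cadherins to actin and binds plakophilin. It was at 23.7 and 23.3 CPM in WT LV and 30.4, 17.6 and 25.9 CPM in E0del/+ LV, and at 12.9 and 7.26 CPM in WT SkM and 14.3, 14.8 and 10.1 CPM in E0del/+ SkM. LV was above SkM in CPM in each mouse, by 1.19-fold (E0del/+ replicate 2) to 3.21-fold (WT replicate 2), while with TMM in place of total counts E0del/+ replicate 2 was at 0.627-fold and 4 of 5 mice were higher in LV. In the edgeR fit the log2 fold change was 0.39 (95% interval -0.14 to 0.92, n = 5 mice, adjusted p = 0.168), so the difference was not past the threshold. It was past it with total counts (1.05, edgeR adjusted p of 0.00310) and without E0del/+ replicate 2 (0.67), and over all alternatives the adjusted p ran from 0.00310 to 0.441.

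The alpha-catenins therefore differed in mix. Ctnna1, the alpha-catenin of most cell types, was at 193 ± 27.0 RPKM in LV and 16.5 ± 2.16 RPKM in SkM (log2 fold change 2.88, SE 0.14), above Ctnna3 in each library. Ctnna3 made up 3.10% of the alpha-catenin RPKM in LV (2.57% to 3.59%) and 15.3% in SkM (11.9% to 19.3%), lower in LV in 5 of 5 mice (exact sign-flip permutation, two-sided, p = 0.063). Within the pair of adherens junction members, Cdh2 took 92.6% of the RPKM in LV, and Ctnna3 took 90.3% in SkM. The pair summed to 85.4 ± 20.4 RPKM in LV and 3.36 ± 0.911 RPKM in SkM, 25.6-fold higher in LV with the same exact p of 0.063.

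Ordered by mean RPKM in LV, the members ran from Dsp (193 ± 51.2), Gja1 (172 ± 27.5), Jup (132 ± 15.7), Cdh2 (79.2 ± 19.5) and Pkp2 (65.4 ± 10.6) to Dsg2 (35.8 ± 7.32), Dsc2 (16.2 ± 2.57), Gjc1 (7.87 ± 0.671), Ctnna3 (6.16 ± 1.18) and Gja5 (5.25 ± 1.11; SD, n = 5). Dsp and Gja1 did not differ beyond their spread (Dsp above Gja1 in 3 of 5 libraries), nor did Cdh2 and Pkp2 (4 of 5) or Ctnna3 and Gja5 (3 of 5). Dsp, Gja1 and Jup ranked 245, 274 and 372 of 23337 genes by mean RPKM in LV. In SkM, Jup led at 30.01 ± 3.89 RPKM, followed by Gja1 (3.19 ± 0.583), Ctnna3 (3.02 ± 0.807) and Pkp2 (2.19 ± 0.505). Gja1 was above Pkp2 in 5 of 5 SkM libraries, while Ctnna3 was not set apart from Gja1 (below it in 3 of 5) or from Pkp2 (above it in 3 of 5). The other 6 members were below 1 RPKM in mean, from Gja5 (0.821 ± 0.267) to Dsc2 (0.239 ± 0.258). Dsp, first in LV, ranked 12408 of 23337 genes in SkM.

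Partner genes of the disc were compared in the same way. Of 12 catenin and area composita genes, 11 have counts in the files (Afdn is not listed), 9 were higher in LV, Vcl was not called, and Nrap was higher in SkM. Nrap, which anchors actin at muscle ends and discs, was at 309 ± 58.9 RPKM in LV and 466 ± 121 RPKM in SkM (log2 fold change -1.23, SE 0.30, adjusted p = 0.00752 in edgeR). With total counts in place of TMM, 10 of the 11 were higher in LV, Vcl among them, and Nrap (-0.57) was not called. Of all genes tested, 59.3% were called higher in LV with total counts, against 32.1% with TMM, which called 30% higher in SkM. Ctnnb1, the beta-catenin, was at 189 ± 12.6 and 86.4 ± 9.40 RPKM (0.47, SE 0.13), and its level in LV was like that of Ctnna1. Without batch 1 neither Nrap (-1.24) nor Ctnnb1 (0.44) was called, and Ctnnb1 was not called without E0del/+ replicate 1 (0.45) or WT replicate 1 (0.46) either. Of 11 channel and scaffold genes found at the disc, 2 were higher in LV (Ank2 and Popdc2), 7 were higher in SkM, and Fgf13 and Tmem65 were not called, whereas with total counts 4 were higher in LV, Fgf13 and Tmem65 among them, and 2 (Des and Popdc3) in SkM. Des, the desmin that desmosomes hold, was higher in SkM (1048 ± 96.9 RPKM in LV, 1605 ± 267 in SkM, -1.27, SE 0.23). Popdc2, a cAMP-binding membrane protein, was higher in LV (291 ± 43.7 and 33.9 ± 3.57 RPKM, 2.43, SE 0.20), and Tmem65 was not called (95.3 ± 14.5 and 61.6 ± 4.90 RPKM, -0.04, 95% interval -0.44 to 0.35; 0.62 with total counts).

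Other cadherins differed in both directions. Of 9 other cadherin and alpha-catenin genes, 6 passed the filter, 4 were higher in LV (Cdh5, Cdh11, Cdh13 and Ctnnal1) and 2 in SkM (Cdh4 and Cdh15). Of all genes tested, 32.1% were higher in LV and 30% higher in SkM. Cdh11 passed the filter through LV alone. Cdh5, the cadherin of endothelium, was at 106 ± 26.1 RPKM in LV and 17.04 ± 4.41 RPKM in SkM (log2 fold change 1.99, SE 0.13), and Cdh13 at 88.0 ± 9.79 and 42.0 ± 4.41 RPKM (0.40, SE 0.12). The call of Cdh13 was lost without E0del/+ replicate 1 (0.37), WT replicate 1 (0.38), E0del/+ replicate 3 (0.32) or batch 1 (0.33). Cdh15, the cadherin of satellite cells and myotubes, was at 12.8 ± 1.92 RPKM in SkM and 0.0229 to 3.45 RPKM in LV. The highest LV value was that of WT LV replicate 2, and the other LV libraries held 1 or 2 counts. Cdh15 passed the filter through SkM alone, and no fold is given because the fitted value depends on the prior count. N-cadherin was thus more abundant in LV and Cdh15 in SkM, and each passed the filter only through the tissue where it was high.

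Markers of the labelled tissues were present. All 6 ventricle markers were higher in LV (median log2 fold change 6.91) and all 8 fast skeletal muscle markers higher in SkM (-9.64). Beside them, 32.1% of all genes tested were higher in LV and 30% higher in SkM. Ventricle markers in SkM ranged from 204 to 2283 CPM in sum, with Actc1 (95.01 to 2060.2 CPM) the most abundant in each library and the highest sum in WT SkM replicate 1. Of the fibroblast markers 3 of 3 were higher in LV (median 1.69), of smooth muscle 2 of 3 (0.70), of leukocytes 2 of 3 (1.79, with Ptprc not called), and of atrium 1 of 3 tested (Nppa), with Sln higher in SkM and Myl4 not called. In SkM, 3 of 3 satellite cell markers were higher, but they passed the filter through SkM alone, so no fold is given. Of the adipocyte markers 0 of 3 and of the epidermal markers 0 of 1 tested were called. Calls of a few markers moved with the setting: DESeq2 called 3 of 3 adipocyte markers higher in SkM, edgeR with DESeq2 size factors called Myl4 higher in SkM, and without batch 1 the markers Myh11, Col1a1 and Alas2 were not called. Of the blood markers Alas2 was higher in LV, Hba-a1 had 0 counts in all libraries and Hbb-bs is not listed. Adipocyte markers were uneven in SkM, 996 and 7.44 CPM in WT and 247, 131 and 978 CPM in E0del/+, and 228 CPM in WT LV replicate 2 against 1.40 to 20.4 CPM in the other LV libraries.

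The genes nearest in pattern to 3 members were sought among 13282 others over the 10 libraries, by the root mean square difference in centred log2 CPM. Dsp was nearest to Mylk3 (0.355), a cardiac myosin kinase, Ryr2 (0.361), the cardiac calcium release channel, and Myh6 (0.453), the alpha myosin heavy chain. Cdh2 was nearest to Nebl (0.375), Fblim1 (0.457) and Myocd (0.474), which encode nebulette, a filamin-binding protein and the cofactor myocardin. Gja1 was nearest to Tmem151a (0.157), Kif6 (0.242) and Tcf21 (0.255), but these had 0 counts in all SkM libraries, so their SkM values are set by the prior count of 2 and the likeness follows from it. Mylk3 was at 232 RPKM in LV and 0.3997 RPKM in SkM, Ryr2 at 173 and 0.242 RPKM, and Nebl at 38.8 and 0.0848 RPKM. Among the members themselves the nearest pairs were Gja5 with Jup (0.435) and Dsg2 with Dsc2 (0.4656), and the furthest Dsp with Ctnna3 (4.14). The prior count also weighs on Cdh2, Dsg2 and Dsc2 in the SkM libraries where they had fewer than 10 counts, and its part in these distances was not tested.

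The second comparison asked whether mice with E0 deleted on 1 allele of Ttn differ in the genes of the disc. In LV, the values of the genotypes overlapped for 10 of 10 members, where 15.4% of 13420 genes tested did not overlap. The edgeR test called 0 members and 0 of all genes (0%), with 564 genes and 0 members at an unadjusted p under 0.05, and DESeq2 called 12 genes and 0 members. Log2 fold changes of E0del/+ over WT ranged from -0.14 for Cdh2 (95% interval -0.89 to 0.60) to 0.23 for Dsc2 (-0.17 to 0.63), with a median of 0.03 beside -0.01 for all genes. Gja1 differed by 0.02 (-0.53 to 0.57) and Dsp by 0.04 (-0.80 to 0.88), so that a change of Dsp up to 1.84-fold, or down to 0.575-fold, lies within its interval. All 5 desmosomal genes were above 0 (0.04 to 0.23) without passing the test, and with batch as a block Dsp was at -0.35 and Jup at -0.01.

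WT LV replicate 2, the library with skeletal muscle RNA and lower ventricle markers, is 1 of the 2 WT libraries in LV. Without it, 4 of the 10 members were above 0 in place of 7, and the estimates of Gja1 and Cdh2 were -0.20 and -0.31. Without WT replicate 1, where it is the lone WT library, edgeR called 578 genes and 0 members. Within batches, E0del/+ over WT in CPM was 0.917 in batch 1 and 1.19 in batch 2 for Gja1, 1.09 and 0.667 for Dsp, 1.08 and 1.48 for Dsc2, and 0.933 and 0.734 for Cdh2, and batch 3 has no WT mouse. The direction thus differed between batches for Gja1 and Dsp. In batch 2 the WT LV library had 2464 Y-linked counts and Xist at 3.60 CPM, and the E0del/+ LV library 36 counts and Xist at 806 CPM. Genotype and sex therefore cannot be told apart in batch 2. Ttn itself was at 7959 and 9344 CPM in WT LV and 7737, 5560.1 and 6597 CPM in E0del/+ LV, lower in each E0del/+ library, with a log2 fold change of -0.45 (95% interval -1.06 to 0.17) that did not pass the test. Leaving out WT replicate 2 gave -0.25 for Ttn, leaving out E0del/+ replicate 2 gave -0.28, and leaving out WT replicate 1 gave -0.61. Within batches, Ttn in E0del/+ over WT was 0.972 and 0.595 in CPM. Ttn was more abundant in SkM, and the part of the skeletal muscle RNA in its level in WT replicate 2 was not tested.

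**Figure D5:**
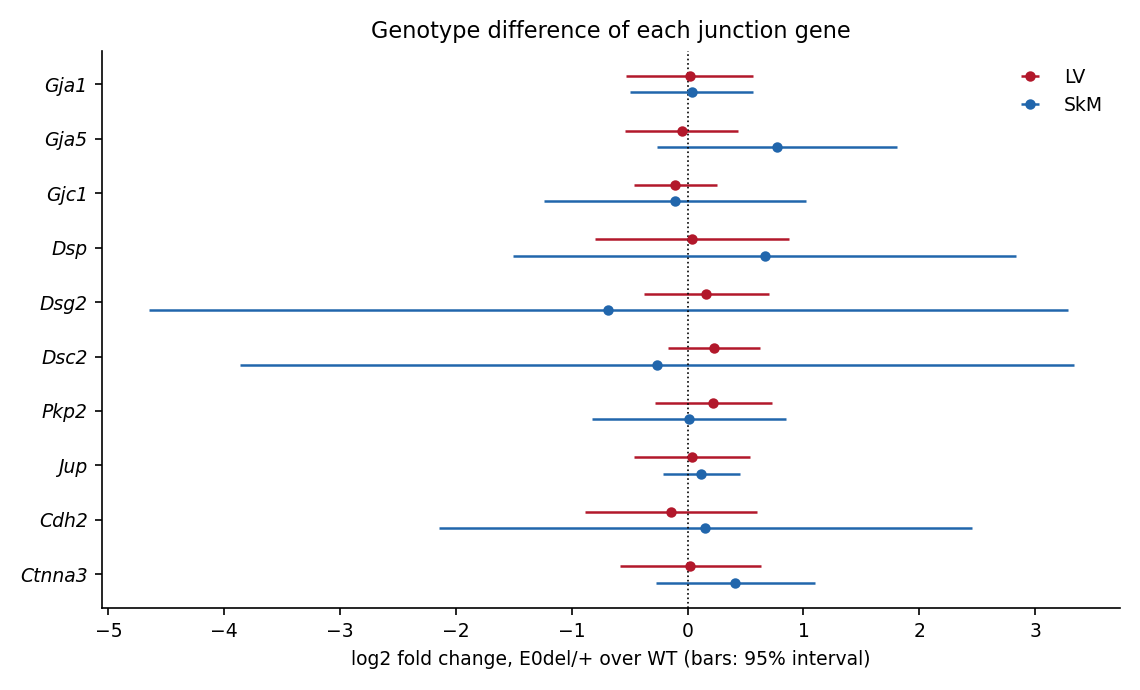
Log2 fold change of E0del/+ over WT for each junction gene in LV (red) and SkM (blue), with 95% intervals from the edgeR fits. Each interval crosses 0 (dotted line), and those of Dsg2 and Dsc2 in SkM are the widest.

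In SkM, 1 of 10 members (Gja5) had values that did not overlap between the genotypes, where 11.4% of 13154 genes tested did not. Of all genes tested 0 were called by edgeR (0%), with 114 genes and 0 members at an unadjusted p under 0.05, and DESeq2 called 0. Gja5 was at 2.80 to 3.17 CPM in the 3 E0del/+ libraries and at 2.52 and 1.14 CPM in WT, a log2 fold change of 0.77 (95% interval -0.26 to 1.81, n = 2 and 3). The counting intervals of WT replicate 1 (1.75 to 3.50 CPM) and E0del/+ replicate 2 (2.02 to 3.78 CPM) overlapped. Without WT replicate 1 the estimate was 1.28, and without WT replicate 2, the lowest library, 0.40. The 5 endothelial markers were also lowest in WT SkM replicate 2, with a sum of 111 CPM against 231 in WT replicate 1 and 236, 223 and 191 CPM in E0del/+, and their part in the level of Gja5 was not tested.

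The remaining members of SkM ranged from -0.69 for Dsg2 (95% interval -4.65 to 3.28) to 0.67 for Dsp (-1.50 to 2.84), with a median over the 10 of 0.08. For Dsg2 the interval runs from 0.0397-fold to 9.72-fold and for Dsc2 from 0.0686-fold to 10.1-fold, with the batch 1 and the other libraries of each genotype far apart. With batch as a block, Dsg2 was at 0.24, Dsc2 at 0.46 and Pkp2 at -0.26, and 0 members were called. Jup had the narrowest interval (0.12, -0.22 to 0.45), and Gja1 differed by 0.04 (-0.49 to 0.57). Within batches, E0del/+ over WT in CPM was 0.880 and 1.15 for Gja1, 1.07 and 1.22 for Jup, and 0.777 and 3.11 for Dsg2. As in LV, genotype and sex cannot be told apart in batch 2. Ttn in SkM was at 24205 and 15856 CPM in WT and 20092, 18854 and 13585 CPM in E0del/+, and its genotypes overlapped, with a difference of -0.17 (-0.78 to 0.44). Between the tissues Ttn was lower in LV (log2 fold change -1.97, SE 0.33, n = 5 mice, edgeR adjusted p = 0.00131), and without batch 1 (-1.93) that difference was not past the threshold.

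Whether the tissue difference depended on genotype was tested over all 10 libraries. Of 14327 genes, 0 were called by edgeR (0%), with 238 genes and 1 member (Gja5) at an unadjusted p under 0.05, and DESeq2 called 0. Without WT replicate 1, edgeR called 155 genes and 0 members. The estimate for Gja5 was -0.83 (95% interval -1.61 to -0.04), its unadjusted p in the edgeR fit was 0.0416, and its adjusted p was 1. It contains the SkM values of the genotypes given above. For Gja1 the estimate was 0.01 (-0.57 to 0.59), the narrowest interval of the members. The tissue ratio of Gja1 in E0del/+ mice thus lay between 0.673 and 1.504 times that in WT mice, as a 95% interval.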

How the data were processed

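The deposited files hold 1 library each. Per the file headers, the authors gave raw counts for each of 23337 genes, with no normalization. The RPKM values were made by the authors from these counts, the length of each gene and the total count of the library, and equalled that recalculation. The submitters' notes name mm10, STAR and DESeq2 without versions.

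Counts were fitted in edgeR 4.0.16 (R 4.3.3) by quasi-likelihood with TMM, filterByExpr and Benjamini-Hochberg adjustment over all genes tested, threshold 0.05. Tissues were compared with mouse as a block. Genotypes were compared within each tissue without a block, and the interaction was fitted with mouse as a block. The SE is the size of the log2 fold change over the square root of F. Sums and shares of RPKM were compared by exact sign-flip permutation over 5 mice.

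The members and lists were chosen with earlier results of these data known. Named are the 10 members, Ttn, for each list its counts and the 3 genes with the highest mean RPKM, and the 3 genes nearest to Gja1, Dsp and Cdh2. Other genes named beside small counts, and the epithelial and lymphocyte markers, were chosen after their values had been seen.

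Alternatives were DESeq2 size factors in edgeR, total counts, DESeq2 1.42.0, no filter, at least 10 counts in every library, blocks left out or added, 1 fit over all 10 libraries, CPM for RPKM, and each replicate left out. The fits without batch 1, the scaling of single values by TMM, and the fits with Xist expression (over 100 CPM) as a block were added after the data were seen.

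The mouse pairs and the batches were checked by the correlation, across genes, of library residuals from their group. Between WT and E0del/+ libraries of 1 batch it was 0.0284 and -0.136 in LV and 0.433 and 0.276 in SkM. Between the tissues of 1 mouse it was -0.102 to 0.126. Genes are not independent replicates. A few genes of the lists are not reported, and the counts given are over the others.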

Additional observations from a re-analysis of the deposited data

Results flagged for a closer look

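Of 68 groups of 5 values (each junction gene in LV, in SkM and as a ratio per mouse, and the class sums, shares and marker sums in each tissue), 6 held 1 far from the others, where the gap to the next exceeded 0.71 of the whole range (Dixon's 95% value), and chance gives about 1 in 20. Dsc2 in LV was lowest in WT LV replicate 2, at 51.8 CPM, with the next library at 72.9 CPM. The same library had 38992 CPM of fast skeletal muscle markers, with the next at 177 CPM, and 228 CPM of adipocyte markers, with the next at 20.4 CPM. Its satellite cell markers were at 10.98 CPM, with the next library at 0.182 CPM, and its 6 epithelial markers summed to 34.6 CPM, with the next at 6.54 CPM, mostly from Krt8 (18.5 CPM) and Krt18 (13.7 CPM), while Krt7 was lowest there and Cdh1 was at 0. The share of Gja1 in the summed connexin RPKM of SkM was highest in WT SkM replicate 2, at 74.3%, with the next library at 67.9%.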

How the results depend on the processing

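For the 10 junction genes between LV and SkM, 115 of 117 alternatives kept the direction and the side of the threshold, and in 2 Ctnna3 passed it. Dsg2, Dsc2 and Cdh2 passed the filter of the main fit through LV alone. Class sums and shares kept their direction in 35 of 35, with a test that cannot pass 0.05 over 5 mice or fewer. For other named genes 274 of 292 did, 14 lost the call and 4 changed sign, all of Tmem65. Genotype estimates, none past the threshold, kept their sign in 121 of 143 alternatives in LV, 124 of 147 in SkM and 97 of 118 for the interaction. Where a call or a sign changed, the cause was not tested.

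Tmem65 between the tissues was at 0.62 with total counts, 0.01 with no filter and 0.04 with at least 10 counts in every library. That filter removed Dsg2, Dsc2 and Cdh2 from the tissue, SkM and interaction fits. Gja5 in LV was at 0.01 with total counts. With DESeq2 size factors, and also in DESeq2, Pkp2 in SkM was at 0 and the interaction estimates of Gja1 and Gjc1 were both -0.04, and DESeq2 put that of Dsc2 at -0.08. In 1 fit over all 10 libraries Pkp2 in SkM was at -0.02. Without batch 1, Gjc1 and Pkp2 in SkM were at 0.31 and -0.14.

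With batch as a block, LV estimates were -0.05 for Gja1, -0.35 for Dsp, -0.01 for Jup and -0.13 for Ctnna3, and SkM estimates 0.24 for Dsg2, 0.46 for Dsc2 and -0.26 for Pkp2. The block called 5 genes in LV (Mstn and the Y-linked Ddx3y, Eif2s3y, Kdm5d and Uty) and 1 in SkM (Eif2s3y), and DESeq2 called 12 in LV.

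Leaving out each replicate in turn gave 0 to 578 genes called in LV and 0 to 155 for the interaction, the highest of each without WT replicate 1. A lone WT library is then assumed to vary like the E0del/+ libraries. Tmem65 between the tissues ran from -0.13 to 0.15. LV estimates ran from -0.20 to 0.28 for Gja1, -0.28 to 0.24 for Gja5, -0.26 to 0.34 for Dsp, -0.05 to 0.42 for Dsg2, -0.11 to 0.21 for Jup, -0.31 to 0.13 for Cdh2 and -0.17 to 0.26 for Ctnna3. SkM estimates ran from -0.16 to 0.27 for Gja1, -0.48 to 0.40 for Gjc1, -0.51 to 1.32 for Dsp, -1.64 to 3.57 for Dsg2, -1.22 to 3.73 for Dsc2, -0.29 to 0.20 for Pkp2, -0.60 to 1.85 for Cdh2 and -0.33 to 0.02 for Ttn. Without E0del/+ replicate 1 the filter removed Dsg2 and Dsc2 in SkM. Interaction estimates ran from -0.13 to 0.09 for Gja1, -0.54 to 0.41 for Gjc1, -1.19 to 0.29 for Dsp, -2.66 to 2.16 for Dsg2, -3.13 to 1.63 for Dsc2, -0.17 to 0.61 for Pkp2, -0.25 to 0.09 for Jup, -1.68 to 0.28 for Cdh2, -0.74 to 0.01 for Ctnna3 and -0.59 to 0.04 for Ttn. Depth limits Dsg2, Dsc2 and Cdh2 in SkM most, where single libraries held fewer than 10 counts.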
